A study of Rattus norvegicus with 13 samples.

Results

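The enzymes that remove superoxide and hydrogen peroxide were followed through their transcripts in the thyroid of young male rats. The genes were taken by name from the probe annotation of the array and comprise Sod1, Sod2, Sod3, Cat, Gpx1, Gpx2, Gpx3, Gpx4, Prdx5 and Prdx6. These 10 genes had 12 probes, out of 36174 gene names and 45598 probes on the array, and every probe of each gene was kept. The study asked what repeated iodine prophylaxis of pregnant rats leaves behind in the thyroid of their progeny. The animals were male Wistar offspring of dams that had received potassium iodide (KI) at 1 mg/kg/day, or saline as the control, by gavage for 8 days from gestational day 9. The thyroids were taken 30 days after weaning, at postnatal day 51, from 6 KI-treated and 7 control offspring, so the offspring themselves had received KI through the mother only. Each array held the RNA of 1 animal. Litters are not named in the sources used here, and the animals were treated as independent.

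The thyroid makes its hormone with hydrogen peroxide: the dual oxidases at the apical membrane release it into the follicle lumen, where it is used to attach iodine to thyroglobulin. The cell therefore carries a dense set of protective enzymes. Superoxide dismutases turn superoxide into hydrogen peroxide, and catalase, the glutathione peroxidases (several of which hold selenocysteine) and the peroxiredoxins turn hydrogen peroxide into water. Excess iodide is known to block hormone synthesis in the thyroid for a time.

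For Gpx1 and Gpx4 the array carried a pair of probes at different places of the same transcript, and these pairs carry much of what follows, so they are shown first. The sequences are those listed in the scanner files, written 5′ to 3′ in the sense of the transcript, and the positions are those the files give on the rat build rn4. The earlier Gpx1 probe begins at base 399 of its transcript (chr16_random:1046092-1046151, plus strand) and lies in the coding sequence, and the later one begins at base 714 (chr16_random:1046407-1046466). The earlier Gpx4 probe begins at base 529 (chr7:11163817-11163876, minus strand), also in the coding sequence, and the later one at base 931 (chr7:11162522-11162581). Of each probe of 60 bases, the earlier ones are printed whole and the later ones, together with the probe of Gpx2 (chr6:99372423-99372482, minus strand, from base 945), by their last 30 bases. Capitals mark AATAAA, the signal for cleavage and polyadenylation at the end of a transcript.
Gpx1 earlier probe: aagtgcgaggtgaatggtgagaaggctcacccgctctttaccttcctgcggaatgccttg
Gpx1 later probe: ctctaaatttacatggagaaacacctgatt
Gpx4 earlier probe: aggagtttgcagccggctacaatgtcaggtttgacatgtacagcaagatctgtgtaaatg
Gpx4 later probe: tgccttgtgggAATAAAatgtagaaatgtg
Gpx2 probe: ggtttagagtccAATAAAgggtaggaatga
The letters AATAAA were found in the later Gpx4 probe, 13 bases before its end, and in the Gpx2 probe, 12 bases before its end, and in no other probe of the 10 genes. On that strand 9.04% of all 45598 probes hold them, and 12.2% hold them or their reverse complement TTTATT. The coordinates of the Cat probe (chr3:88683063-88685007), the Gpx3 probe (chr10:40316128-40317595) and the Prdx5 probe (chr1:209583751-209583924) span 1945, 1468 and 174 bases of the genome for 60 bases of transcript, so these probes cross an intron.

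Levels are given as log2 of the background-corrected fluorescence minus the 75th percentile of the same array, so 0 is the 75th percentile and a step of 1 is a doubling of the signal. Brightness differs from probe to probe for reasons of sequence, and levels were therefore compared between animals and not between genes. All 12 probes were well above background on 13 of 13 arrays and no gene spot was saturated. In each array between 34840 and 41050 of the 58717 gene spots were well above background. The number of arrays limits the precision. The arrays lay on 6 slides that were scanned in 3 sessions. The first session held 2 KI-treated and 2 control arrays, the second 3 and 2, and the third 1 and 3. All 7 markers of the thyroid follicular cell, among them Tg, Tshr, Slc5a5, Pax8 and Foxe1, were well above background on 13 of 13 arrays. Markers of neighbouring cells were also present, with Pth (parathyroid hormone) and Calca (calcitonin) well above background on 13 of 13 arrays. Of the 6 skeletal muscle markers, Acta1, Myh1, Ckm and Tnnt3 were well above background on 13 arrays, Myh4 on 11 and Myh2 on 5. Of the lymphocyte markers Cd3d was well above background on 13 arrays, Cd3e on 1 and Cd79b on 2, and of the cartilage markers Col2a1 on 8, Matn1 on 1 and Acan on 0. The arrays measured RNA of the whole gland, in which fewer cells of a type and less RNA per cell cannot be told apart.

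The arrays of controls 4 and 6 stood apart from the other 11. Their median correlation with the other arrays over the tested probes was 0.959 and 0.968, against 0.978 to 0.983 for the others. The signal at their 75th percentile, 290 and 242 units, was the lowest of all arrays (358 to 547 on the others). They were also the only control arrays of the first scan session, which they shared with KI-treated animals 2 and 3. Among 1531 transcripts with at least 2 tested probes whose starts lie 300 bases or more apart, the last probe exceeded the first by a median log2 of 3.02 in control 4 and 2.89 in control 6, against 2.20 to 2.51 in the other 11 arrays. The difference between the groups at each of the 12 probes is therefore given with and without these 2 animals.

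None of the 10 genes differed between KI-treated and control animals after adjustment over all probes. In limma, 0 of the 12 probes passed an adjusted p of 0.05, as did 0 of all 25717 probes tested, that is 0% of them. The smallest adjusted p among the 12 was 0.412, for Prdx6, and the smallest among all probes 0.257. At an unadjusted p under 0.05 there were again 0 of 12, where 12.7% of all tested probes passed, 5.71% higher and 7.01% lower in the KI-treated animals. The groups overlapped for all 12 probes, and 0.587% of tested probes had groups that did not overlap. Of the 12 differences, 6 were above 0 and 6 below, with a median of 0.01, while the median over all tested probes was -0.08. The share of higher among the probes at an unadjusted p under 0.05 depended on the scaling: it was 44.9% here, 56.0% after quantile normalization, 58.1% in the deposited log2 values, 61.7% with the percentile taken over spots, and 25.4% after normexp background correction. Under the same scalings, 6 to 9 of the 12 probes had a positive difference.

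**Figure D1:**
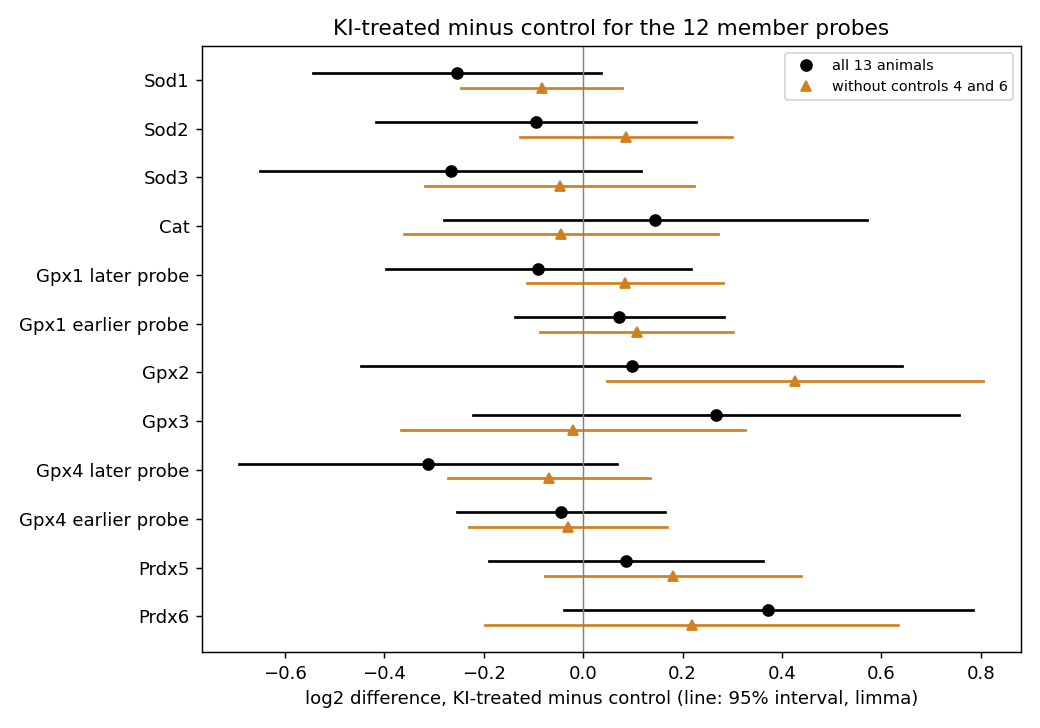
Difference between KI-treated and control animals (horizontal axis, log2) for each of the 12 probes, with 95% intervals from limma, over all 13 animals (black circles) and without controls 4 and 6 (orange triangles). All 12 black intervals include 0, and without the 2 controls only that of Gpx2 does not, from 0.05 to 0.80 before any adjustment.

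Among the superoxide dismutases, Sod1 showed the lowest exact p. Sod1 encodes the copper and zinc enzyme of the cytosol. Its level ran from 6.89 over a median of 6.91 to 7.04 in the KI-treated animals and from 6.91 over 7.11 to 7.65 in the controls. All 6 KI-treated animals lay below the control median, yet the ranges overlapped, and the highest values were those of controls 4 and 6 (7.65 and 7.57). The difference was -0.25 (SE 0.14, 95% interval -0.54 to 0.04), with an exact two-sided permutation p of 0.049 and a limma adjusted p of 0.420. Without controls 4 and 6 it was -0.08 (interval -0.25 to 0.08, exact p = 0.108). Within the scan sessions it was -0.65 in the first, -0.11 in the second and -0.07 in the third, which held 1 KI-treated animal.

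Sod2, the manganese enzyme of the mitochondrial matrix, ran from 3.16 over 3.25 to 3.42 in the KI-treated animals and from 2.90 over 3.27 to 3.92 in the controls. The KI-treated values lay inside the control range. The difference was -0.09 (SE 0.15, interval -0.42 to 0.23, limma adjusted p = 0.740) and its sign was not fixed, being 0.09 without controls 4 and 6 and 0.03 in the deposited log2 values. Sod3 encodes the secreted enzyme of the extracellular space. Its values ran from 5.79 over 5.91 to 6.29 in the KI-treated animals and from 5.70 over 6.16 to 6.85 in the controls. Of the KI-treated animals 5 of 6 lay below the control median. The difference was -0.27 (SE 0.18, interval -0.65 to 0.12, adjusted p = 0.482 in limma). Without controls 4 and 6 it shrank to -0.05 (interval -0.32 to 0.22). For all 3 dismutases, controls 4 and 6 were higher than every other animal.

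Cat encodes catalase, the peroxisomal enzyme that splits hydrogen peroxide into water and oxygen. In the KI-treated animals Cat ran from -0.16 over 0.26 to 0.43 and in the controls from -0.84 over 0.10 to 0.50. The lowest value was that of control 4, and the other controls spanned -0.17 to 0.50, close to the range of the KI-treated animals. The difference of 0.15 (SE 0.20, interval -0.28 to 0.57, limma adjusted p = 0.702) became -0.04 without controls 4 and 6, and -0.01 without control 4 alone.

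Of the glutathione peroxidases, Gpx1 is the cytosolic selenoenzyme found in most cells. Its later probe ran from 4.39 over 4.58 to 4.72 in the KI-treated animals and from 4.35 over 4.51 to 5.12 in the controls. Controls 4 and 6, at 5.12 and 5.05, were above every other animal. The difference was -0.09 (interval -0.40 to 0.22, limma adjusted p = 0.740), and it turned to 0.08 without them, 0.01 after quantile normalization and 0.03 in the deposited log2 values. The earlier probe ran from 3.39 over 3.44 to 3.68 in the KI-treated animals and from 3.19 over 3.41 to 3.59 in the controls. On this probe controls 4 and 6, at 3.59 and 3.43, lay within the range of the others. The difference was 0.07 (interval -0.14 to 0.28, limma adjusted p = 0.698), and 0.11 without those controls.

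Gpx2 is the glutathione peroxidase best known from the epithelium of the gut. It ran from 6.47 over 6.65 to 7.30 in the KI-treated animals and from 5.87 over 6.54 to 7.57 in the controls, the widest range among the 12 probes at 1.69. The 2 highest animals were controls 6 and 4, and 5 of 6 KI-treated animals lay above the control median. Over all animals the difference was 0.10 (SE 0.25, interval -0.45 to 0.64, limma adjusted p = 0.839). Without controls 4 and 6 it was 0.43 (SE 0.17, interval 0.05 to 0.80), with an unadjusted limma p of 0.031, an exact permutation p of 0.041 and an adjusted p of 0.488. By scan session the difference was -0.61 in the first, where controls 4 and 6 were the only controls. The Gpx2 difference was 0.53 in the second session and 0.43 in the third, which held 1 KI-treated animal. Without control 2, the lowest animal, the difference was -0.04, and without KI-treated animal 3 it was -0.01.

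Gpx3, the secreted glutathione peroxidase of plasma, ran from -0.65 over -0.46 to -0.21 in the KI-treated animals and from -1.56 over -0.62 to -0.07 in the controls. Here controls 4 and 6 were the 2 lowest animals, at -1.56 and -1.36. The difference of 0.27 (SE 0.23, interval -0.22 to 0.76, limma adjusted p = 0.555) became -0.02 without them.

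Gpx4 reduces lipid hydroperoxides within membranes. Its later probe ran from 6.73 over 6.77 to 7.10 in the KI-treated animals and from 6.76 over 7.01 to 7.77 in the controls. Controls 4 and 6, at 7.77 and 7.71, were the highest, and 5 of 6 KI-treated animals lay below the control median. The difference was -0.31 (SE 0.18, interval -0.69 to 0.07, exact permutation p = 0.125, limma adjusted p = 0.436), and -0.07 without controls 4 and 6. The earlier probe ran from 4.06 over 4.26 to 4.56 in the KI-treated animals and from 4.25 over 4.29 to 4.42 in the controls. The difference was -0.04 (interval -0.25 to 0.16, limma adjusted p = 0.811), and -0.03 without controls 4 and 6. It had a positive sign after quantile normalization (0.07), in the deposited log2 values (0.08) and with the percentile over spots (0.03).

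The peroxiredoxins reduce peroxides through a reactive cysteine. Prdx5, found in mitochondria, peroxisomes and cytosol, ran from 4.83 over 4.98 to 5.09 in the KI-treated animals and from 4.47 over 4.79 to 5.21 in the controls. All 6 KI-treated animals lay above the control median and inside the control range. The difference was 0.09 (SE 0.13, interval -0.19 to 0.36, limma adjusted p = 0.726), and 0.18 (interval -0.08 to 0.44) without controls 4 and 6. Prdx6, the member of the family with a single reactive cysteine, ran from 1.85 over 2.14 to 2.69 in the KI-treated animals and from 1.45 over 1.71 to 2.45 in the controls. All 6 KI-treated animals were above the control median, and controls 4 and 6, at 1.45 and 1.47, were the lowest of the 13. The difference of 0.37 (SE 0.19, interval -0.04 to 0.78) was the largest of the 12 in size, with an exact permutation p of 0.093 and a limma adjusted p of 0.412. It was 0.22 without those 2 animals (interval -0.20 to 0.63). By scan session the Prdx6 difference was 1.09 in the first, -0.28 in the second and 0.12 in the third, which held 1 KI-treated animal.

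**Figure D2:**
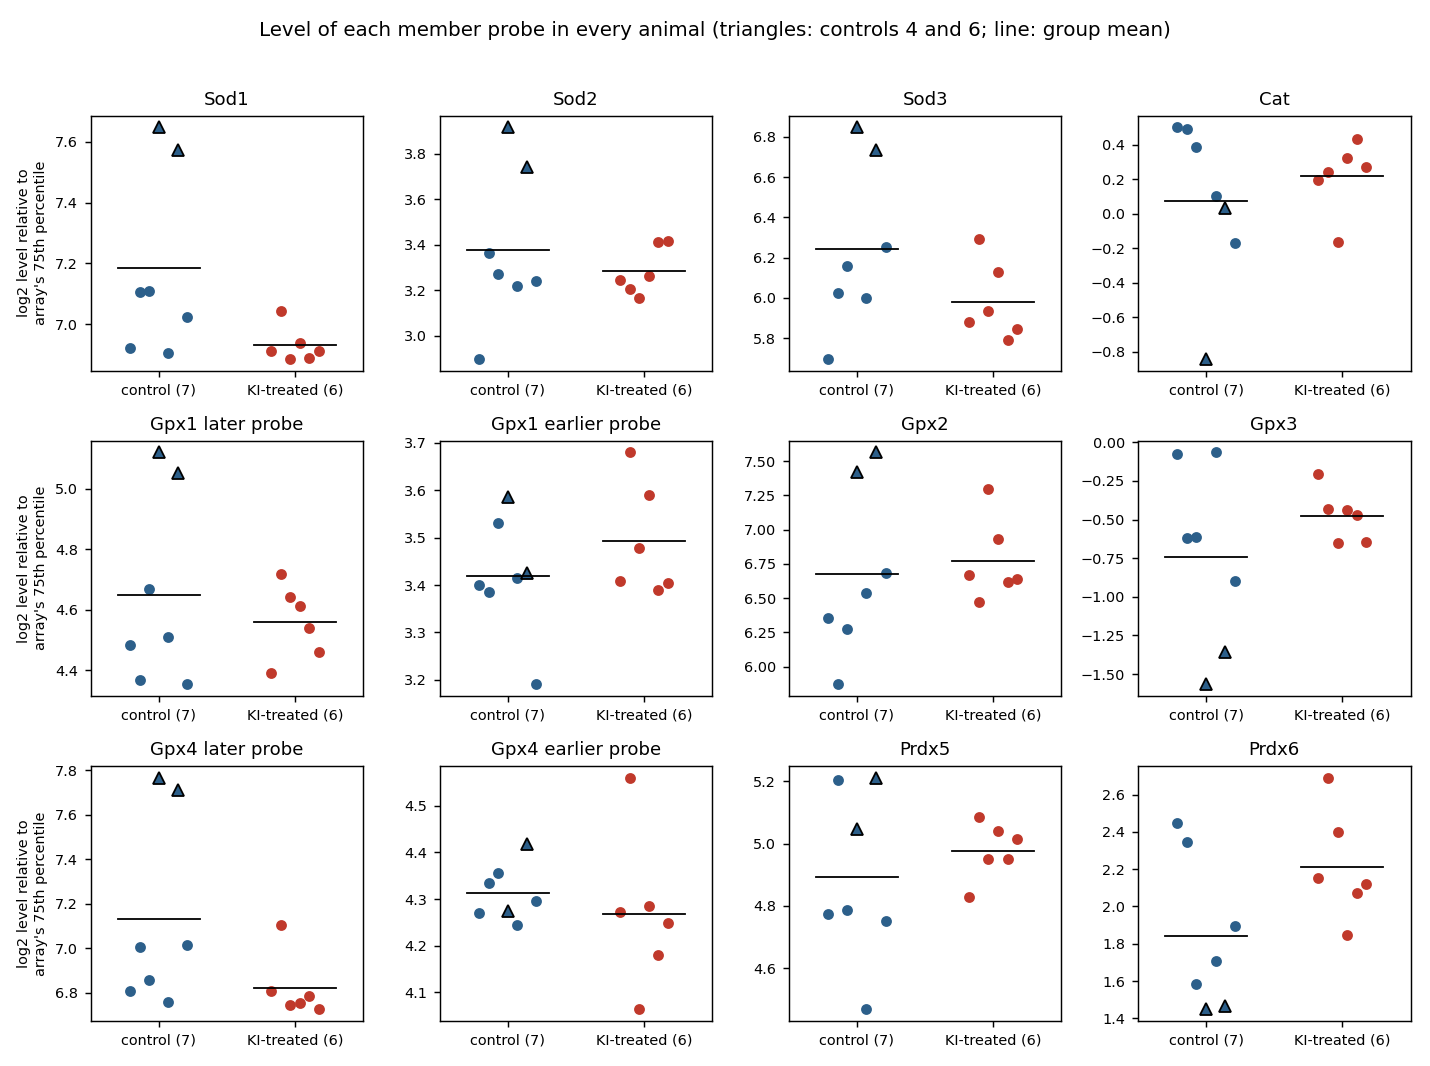
Level of each of the 12 probes in every animal (vertical axes, log2 relative to the array's 75th percentile, on a separate scale per probe), with 7 controls in blue, 6 KI-treated animals in red, triangles for controls 4 and 6 and a line at the group mean. The triangles lie above all other points for 6 probes and below all other points for Gpx3 and Prdx6.

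Controls 4 and 6 lay together at an end of the range on 8 of the 12 probes. On 6 of the 12 probes (Sod1, Sod2, Sod3, Gpx2 and the later probes of Gpx1 and Gpx4) both lay above all 11 other arrays, and on 2 (Gpx3 and Prdx6) both lay below. Over all tested probes the same was true of 26.4% and 14.6%, so the deviation was not confined to these genes. The count depended on the scaling, since the 75th percentile over spots exceeded that over probes by a log2 of 2.36 and 2.37 on these 2 arrays and by 2.04 to 2.18 on the others. With the percentile over spots both lay above on 5 of the 12 probes, Gpx2 no longer among them, with quantile normalization on 4 and in the deposited log2 values on 2 (Sod3 and the later Gpx4 probe), while Gpx3 and Prdx6 remained the 2 below under each of these. The shares of all tested probes were then 12.6% above and 22.4% below with the percentile over spots, 16.1% and 15.9% with quantile normalization, and 10.9% and 17.1% in the deposited values. Leaving both animals out brought the difference nearer to 0 for 9 of the 12 probes and took it farther from 0 for 3 (Gpx2, Prdx5 and the earlier Gpx1 probe).

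The pairs of probes showed the same deviation inside a single gene. For Gpx1 the later probe exceeded the earlier one by a log2 of 1.54 in control 4 and 1.63 in control 6, against 0.98 to 1.16 in the other 11 animals. For Gpx4 the excess was 3.49 in control 4 and 3.29 in control 6, against 2.47 to 2.72 in the others. The 11 other animals of both groups thus lay within a narrow band for each pair. Between the groups the mean excess differed by more than the SD of the KI-treated animals. It differed by less than the SD of the controls, which included controls 4 and 6. This held for Gpx1 (1.07 ± 0.07 SD in 6 KI-treated, 1.23 ± 0.25 in 7 controls, exact permutation p = 0.184) and for Gpx4 (2.55 ± 0.08 and 2.82 ± 0.40, exact permutation p = 0.173). The median excess over 1531 transcripts, given above, was highest in the same 2 arrays. Whether this gradient along the transcript accounts for the levels of the 10 genes in these 2 animals was not tested.

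**Figure D3:**
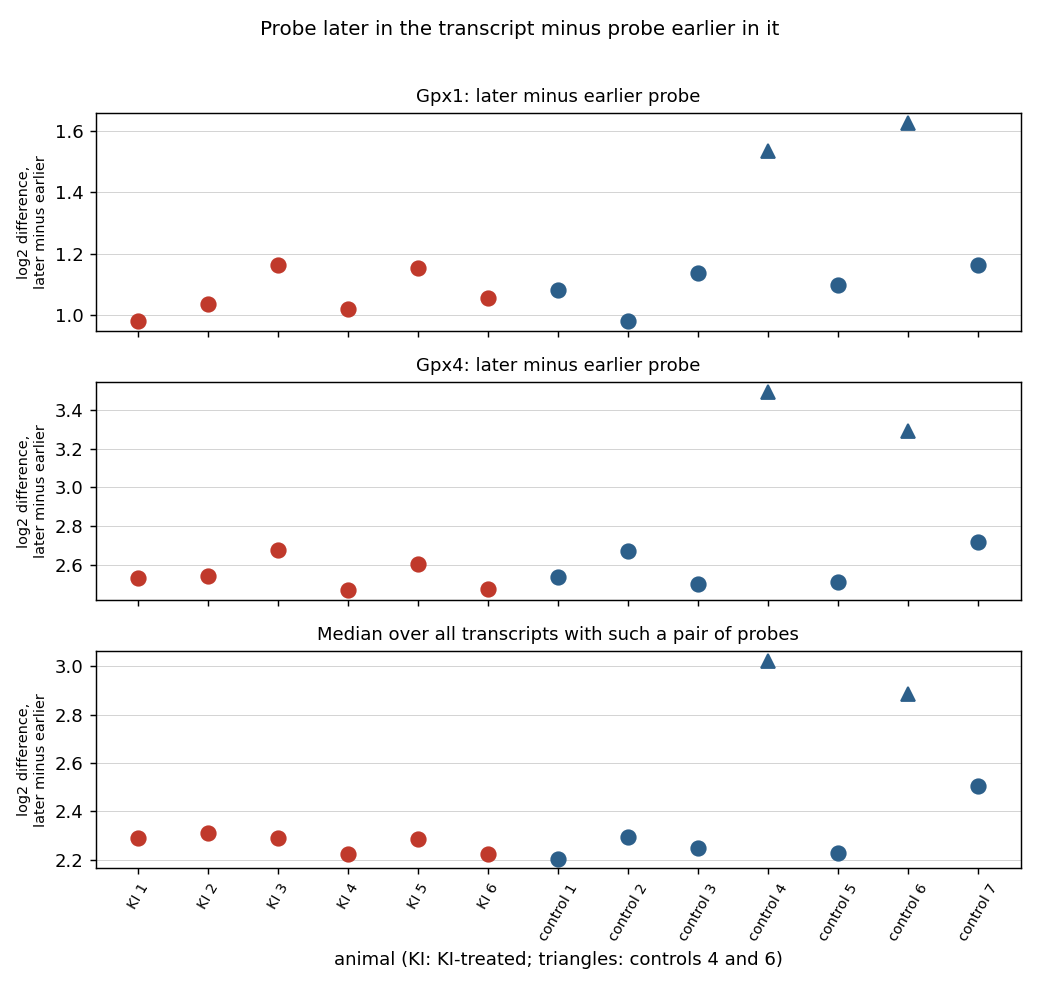
Later minus earlier probe (log2) in each animal for Gpx1 (top) and Gpx4 (middle), and the median of last minus first probe over 1531 transcripts (bottom), with KI-treated animals in red, controls in blue and controls 4 and 6 as triangles. Controls 4 and 6 are the highest in all 3 panels, and control 7 is the next highest in the bottom panel at 2.51.

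The levels of the earlier and the later Gpx1 probe were correlated across animals, though not under every processing. After subtraction of the group means, Pearson's r across the 13 animals was 0.67 (permutation p = 0.013) and Spearman's rho 0.75 (p = 0.0042), with adjusted values of 0.025 and 0.0085 over the 2 pairs examined. Without controls 4 and 6, which were the farthest from the median of the later probe, r was 0.74 (n = 11, permutation p = 0.0091). For this value the group means subtracted were still those of all 13 animals. The remaining controls were therefore not centred on their own mean. The relation was no longer past the threshold after quantile normalization (r = 0.21) or with the means of the scan sessions also subtracted (r = 0.48), and sessions of 4 or 5 arrays were too small for a value each. For Gpx4, r was 0.38 (permutation p = 0.206) and rho 0.26 (p = 0.393), with r = 0.57 (permutation p = 0.078) and rho 0.19 (permutation p = 0.577) without controls 4 and 6. The means subtracted for the latter 2 values were again those of all 13 animals. An offset between the groups thus remained in them, and they do not settle whether the Gpx4 probes were correlated within groups.

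The spread between animals was larger in the controls than in the KI-treated group for 11 of the 12 probes, the exception being the earlier Gpx4 probe. The median SD was 0.15 in the KI-treated and 0.38 in the control animals. Without controls 4 and 6 the median SD of the 5 remaining controls was 0.19, and the control SD was still the larger for 10 of 12. These counts were not taken over all tested probes, so they do not set these genes apart from others. The SD pooled over both groups was 0.30 at the median of the 12 probes and 0.31 at the median of all tested probes, with 6 of 12 below the latter. The earlier probes of Gpx4 (0.12) and Gpx1 (0.12) had the smallest pooled SD of the 12, and Gpx2 (0.50) and Gpx3 (0.44) the largest. Only 1.39% and 1.53% of all tested probes had a pooled SD as small as or smaller than those of these Gpx4 and Gpx1 probes. After quantile normalization the median pooled SD of the 12 probes was 0.18, and no value over all tested probes is given beside it.

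For the 5 probes printed at 10 spots per array, the error of single spots could be set beside this spread. The median SD of a probe's spots within an array was 0.03 to 0.04 for both Gpx1 probes, Gpx2, Prdx5 and Sod3. The pooled SD between animals was 12.5 times that value for Gpx2, 10.9 times for Sod3, 6.35 and 4.37 times for the later and earlier Gpx1 probes, and 4.99 times for Prdx5. Spots of an array share its RNA and labelling, so their SD holds only the error of the spot itself. That SD is of single spots, while an animal's level is the mean of up to 10, in which this error is smaller. The other 7 probes had 1 spot per array and no such value.

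**Figure D4:**
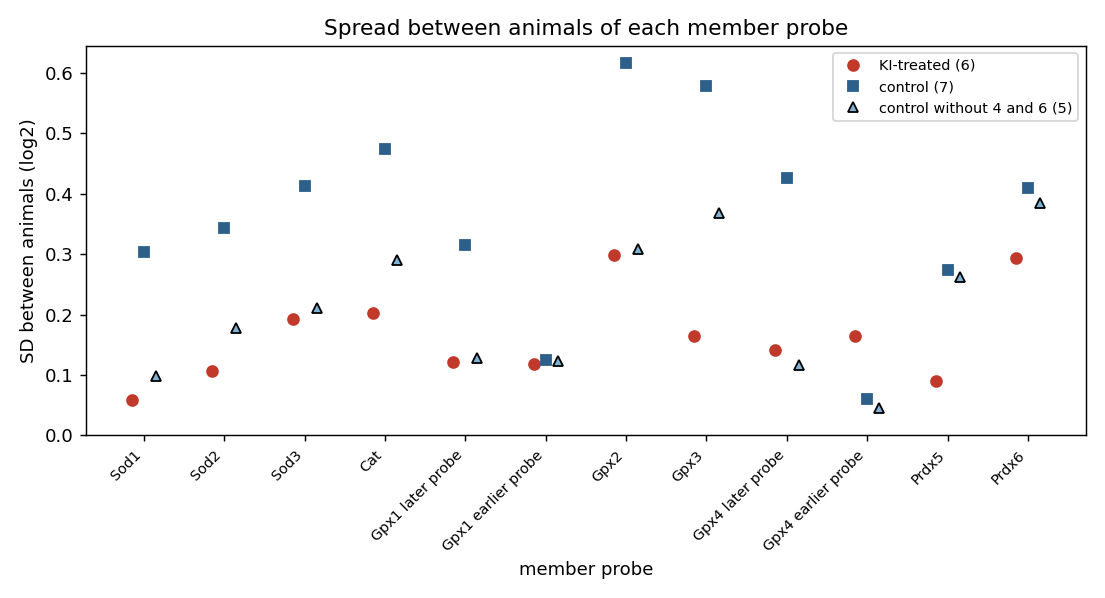
Standard deviation between animals (vertical axis, log2) of each of the 12 probes in the 6 KI-treated animals (red circles), the 7 controls (blue squares) and the 5 controls other than 4 and 6 (light triangles). The blue squares lie above the red circles for 11 of 12 probes.

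Around these enzymes, 32 further genes of the same chemistry were examined, of which 31 were tested. None passed an adjusted p of 0.05 in limma. At an unadjusted p under 0.05, 3 had a higher and 0 a lower mean in KI-treated animals at their brightest probe, with a median difference of -0.06 over the 31. Over all tested probes 5.71% were higher at that threshold, as given above. Among the 7 other peroxiredoxin and glutathione peroxidase genes these were Prdx3, the mitochondrial peroxiredoxin (0.54, limma adjusted p = 0.353), and Prdx1, a cytosolic one (0.39, limma adjusted p = 0.385). Of the 4 tested genes of glutathione supply it was Gss, glutathione synthetase (0.42, limma adjusted p = 0.369). None of the 6 genes that produce superoxide or hydrogen peroxide passed the unadjusted threshold over all animals. The 2 with the lowest p were Duoxa1 and Duoxa2, maturation factors of the dual oxidases, and with Duox1 and Duox2 themselves, named after their values were seen, they had differences of -0.19 to -0.35 with adjusted p of at least 0.414 in limma. With controls 4 and 6 left out, Duoxa2 was at -0.49 and passed the unadjusted threshold. Duoxa1 was then at -0.36, and Duox1 and Duox2 were at -0.11 and -0.08.

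Controls 4 and 6 lay below the control mean for Prdx3 (1.07 and 1.52 against 1.79 ± 0.41 SD, n = 7) and above it for other genes of these lists, such as Gclc (3.04 and 2.91 against 2.34) and Duox1 (2.69 and 2.88 against 2.36). Without them the differences were 0.34 for Prdx3, 0.22 for Prdx1 and 0.24 for Gss. Prdx3 and Gss still passed the unadjusted threshold then (limma adjusted p = 0.440 and 0.439), and Prdx1 did not. None of the 6 genes of the NRF2 response, the regulator that switches on antioxidant genes, passed the unadjusted threshold. The smallest p there belonged to Keap1, its repressor (0.37, limma adjusted p = 0.431, and 0.13 without those controls), and Hmox1, heme oxygenase 1 (0.50, limma adjusted p = 0.472, and 0.33 without them). At their brightest probe, none of the 8 genes of copper and selenium supply passed either. The closest were Pstk, a kinase of selenocysteine synthesis (-0.23, limma adjusted p = 0.396, and -0.13 without those controls), and Ccs, the copper chaperone of Sod1 (0.28, limma adjusted p = 0.402, and 0.13 without them). The other Pstk probe had the opposite sign, at 0.44, and passed the unadjusted threshold (limma adjusted p = 0.382). It was at 0.29 without those controls.

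Markers of the cell types the gland could hold were summed for each animal, with overlapping groups in all 11 lists. The summed level of the 7 follicular markers ran from 10.1 to 10.3 in the KI-treated animals and from 10.2 to 10.9 in the controls on the log2 scale (exact permutation p = 0.036), with the highest value in control 4. Signals were summed before the log2, so Tg, at a mean level of 10.2 against 6.05 or lower for the others, made up most of this sum. At their brightest probes the other follicular markers had differences of -0.21 to -0.07, with unadjusted limma p of 0.241 to 0.856. The 5 adipocyte markers ran from 4.32 to 5.59 and from 5.42 to 6.05 (exact permutation p = 0.029), and the 6 erythroid markers with a probe from 8.25 to 8.90 and from 8.24 to 9.40 (exact permutation p = 0.537). In the adipocyte sum the brightest markers were Cfd and Adipoq, at mean levels of 4.7 and 3.4, with differences of -0.54 and -0.44. Fabp4, at 2.8, had the opposite sign (0.24). Lep and Plin1, at -1.8 and -3.1, were too dim to weigh much in this sum, with differences of -0.24 and -0.54. The other 8 lists of markers had an exact permutation p of at least 0.136. With controls 4 and 6 left out, the exact permutation p was 0.093 for the follicular, 0.071 for the adipocyte and 0.578 for the erythroid markers, and 0.045 for the cartilage markers. The cartilage sum was dim, at -3.7 to -2.7 in the KI-treated animals and -3.3 to -1.8 in the remaining controls. Only 1 of its 3 genes, Col2a1, was bright enough to be tested. At the brightest probe of each gene, single markers with an unadjusted limma p under 0.05 were Tg, Adipoq, Cfd and Scgb1a1, lower in the KI-treated animals, and Hbb, Gcm2 and Chga, higher, and none passed after adjustment. Of the other probes of the marker genes, one of Tg (-0.32) and one of Krt5 (-0.63) passed that threshold as well, the latter against 0.72 at the brightest Krt5 probe. The part of these cell types in the values of the 10 genes was not tested.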

How the data were processed

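Total RNA of 13 thyroids, labelled with Cy3, was hybridised to one-colour Agilent rat arrays, 1 animal per array. The authors deposited spot intensities from Agilent Feature Extraction (release 10.7.3.1), background-subtracted and detrended but not normalized between arrays. They also deposited log2 values of the same arrays, used as an alternative, whose normalization is not given in the sources used here. Of 62976 features, 58717 were gene spots. Outlier spots were dropped, log2 intensities were averaged per probe, and each array's 75th percentile over the 45598 probes was subtracted. Taking it over spots, as the scanner software does, was also computed, and the choice was made after both had been seen.

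Probes flagged well above background on 6 or more arrays (25717) entered limma 3.58.1 under R 4.3.3, with Benjamini-Hochberg adjustment at 0.05, a fit first checked on simulated arrays. Exact two-sided permutation tests ran over all divisions into 6 and 7 animals (smallest possible p 5.8e-04), and correlations used 100000 permutations. Alternatives were other normalizations, filters and variance estimates, slide, scan session and replicate number as blocks, array weights, the methods' t-test, averaged probes, retained outlier spots and leaving out each animal. The percentile over spots and the omission of controls 4 and 6 were added after seeing the data. The 10 genes and the lists were chosen with earlier results of these data known. All probes of the 10 genes are described. From the further lists, genes with an unadjusted p under 0.05 are named, or else the 2 with the lowest p, and from the marker lists also those not detected. 2 further genes of these lists are not reported here, and the counts leave them out.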

Additional observations from a re-analysis of the deposited data

Results flagged for a closer look

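In each group, each probe of the 10 genes was examined for a single animal far from the rest of its group by Dixon's test, 24 groups of values in all, of which chance picks out about 1 in 20. There were 2 such values, both in KI-treated animal 2 and both the highest of the group. The later Gpx4 probe had 7.10 in this animal, where the next was 6.81 and the lowest of the 6 was 6.73. Sod1 had 7.04, where the next was 6.94 and the lowest 6.89. Without this animal, the difference between KI-treated and control animals was -0.37 for the later Gpx4 probe and -0.28 for Sod1. The test uses the gap to the nearest value, so it can miss 2 animals of a group that lie far out together. Controls 4 and 6 were such a pair, at 7.77 and 7.71 on the later Gpx4 probe and 7.65 and 7.57 on Sod1, and were not picked out.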

How the results depend on the processing

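No setting brought any of the 12 probes past an adjusted p of 0.05 in limma or by the methods' t-test, and the lowest adjusted p under any setting was 0.188. The number of the 12 at an unadjusted p under 0.05, which was 0, became 1 with normexp and the 75th percentile (Prdx6, where 17.9% of all tested probes passed), in the deposited log2 values (Prdx5, 12.6%), without controls 4 and 6 (Gpx2, 9.38%) and with array weights (Prdx6, 17.02%). It became 2 with the slide or the scan session as a fixed block (Sod1 and the later Gpx4 probe, both lower in the KI-treated animals, where 15.5% and 19.9% of all tested probes passed). With the replicate number as a block it was 1 (Prdx6, 9.16%). Animals of the same number did not deviate together (correlations -0.11 to 0.07, 0 of 12 animals closest to their own number), so the numbers gave no pairing. Leaving out 1 animal at a time gave 0 to 2, where 9.19% to 17.9% of all tested probes passed. The 2 came without control 1 (Prdx6 and Sod1, 17.9%). The number was 1 without KI-treated animal 4 (Prdx6, 10.2%), control 2 (Prdx6, 17.2%) or control 5 (Sod1, 13.5%). The causes were not tested.

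Leaving out controls 4 and 6 changed the sign for Cat (-0.045), the later Gpx1 probe (0.084), Gpx3 (-0.020) and Sod2 (0.086). With quantile normalization it changed for the later Gpx1 probe (0.014) and the earlier Gpx4 probe (0.075), and with normexp and quantile for the same probes (0.011 and 0.072). In the deposited log2 values it changed for the later Gpx1 probe (0.034), the earlier Gpx4 probe (0.085) and Sod2 (0.031). With array weights it changed for the later Gpx1 probe (0.00028) and Sod2 (0.046), and with the percentile over spots for the earlier Gpx4 probe (0.035). With 1 animal left out, Cat ranged from -0.0068 (without control 4) to 0.221, and Gpx2 from -0.036 (without control 2) to 0.246. Prdx5, Prdx6, Sod1, Sod3, the earlier Gpx1 probe and the later Gpx4 probe kept their sign under every setting run, but not their size. Sod1 ranged from -0.301 to -0.059, the later Gpx4 probe from -0.374 to -0.069, Sod3 from -0.357 to -0.047, Prdx5 from 0.015 (without control 5) to 0.227, Prdx6 from 0.218 to 0.473 and the earlier Gpx1 probe from 0.035 to 0.187. The correlation of the Gpx1 probes was 0.214 with quantile normalization and 0.480 with session means subtracted, and that of the Gpx4 probes -0.090 with quantile normalization. The median spread ranged from 0.228 to 0.310 with 1 animal left out, and was 0.179 with quantile normalization and 0.221 with the scan session as a block, against 0.296. Over all tested probes, array weights called 50 past the adjusted threshold, against 0. Signal over background set no limit for these probes, and 13 arrays left intervals of 0.21 to 0.54 on either side of a difference.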
